A study of Mus musculus with 8 samples.

Results

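The EGFR family genes examined here were 3 receptors (Egfr, Erbb2 and Erbb3), 6 ligands (Hbegf, Epgn, Tgfa, Btc, Ereg and Egf) and the feedback inhibitor Errfi1. They were taken by gene symbol from the array annotation, which gave 10 genes of 17097 tested and 20 probe sets of 45037. A probe set is a group of short probes that report on 1 transcript. Expression was measured in bulge cells, the stem cell compartment of the hair follicle, from back skin labelled pre-neoplastic. The groups were 4 arrays labelled G9a cKO, from mice in which the histone methyltransferase G9a is conditionally deleted, and 4 labelled G9a WT. The titles number the arrays of each genotype as replicates and do not state that each came from a separate animal. For all 8 arrays the animals were 15 weeks old. They had received both the mutagen DMBA (0.25 mg per ml) and the tumour promoter TPA (0.02 mg per ml). The dose was 200 µl each in acetone once a week, from an age of 8 weeks and for 6 weeks. Mice without this treatment were not analysed here, so no value says how the treatment itself moved these genes. The sources used here do not name the Cre line behind the deletion, the strain or the way bulge cells were isolated.

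EGFR family receptors are membrane tyrosine kinases. A ligand, made as a membrane-bound precursor and cut free by ADAM proteases, brings 2 receptors together, which phosphorylate each other and switch on the RAS-ERK and PI3K pathways. Erbb2 binds none of the known ligands and Erbb3 has little kinase activity, so both work as partners. In skin the family is known for keratinocyte growth and wound repair, and TPA is known to promote ligand shedding. ERK in turn induces Hbegf and Errfi1, the latter encoding a cytoplasmic protein that binds the active receptor kinase and blocks it.

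Array medians were 5.87 to 5.95 (log2). The bulge and basal keratinocyte markers were high on every array, with a list mean of 10.93 to 10.95 in cKO and 10.94 to 11.00 in WT. Of the 2 probe sets of Ehmt2, the gene of G9a, 1460692_PM_at had means of 5.85 ± 0.41 for cKO and 9.07 ± 0.19 for WT (log2, SD, n = 4 each), while 1426888_PM_at was at 8.41 in both. Which exons were deleted is not stated in the labels, and whether the second probe set lies inside them is unknown. WT replicate 4 stood apart from the other WT arrays in several genes below, where values without it are given too.

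None of the 10 genes, and none of the 20 probe sets, passed the test for a genotype difference (limma, Benjamini-Hochberg adjusted p under 0.05 over all genes or all probe sets). The background was 2.76% of genes called in either direction and 0.836% called lower in cKO, and 1.78% and 0.591% of probe sets. Epgn and Hbegf were the 2 members with the largest differences, both lower in cKO, at 1.41-fold and 1.40-fold. They were also the only 2 of the 10 with an unadjusted limma p under 0.05, which 13.7% of all genes had in either direction and 5.57% as lower in cKO. Without WT replicate 4 both passed, where 4.66% of all genes were called and 1.72% were called lower. That array had the lowest WT value of both genes, so leaving it out had to widen both differences. With any other single array left out neither passed. The median log2 change of the 10 genes was -0.025, with 7 below 0, against a median of 0.0027 over all genes, of which 48.5% were below 0.

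**Figure D1:**
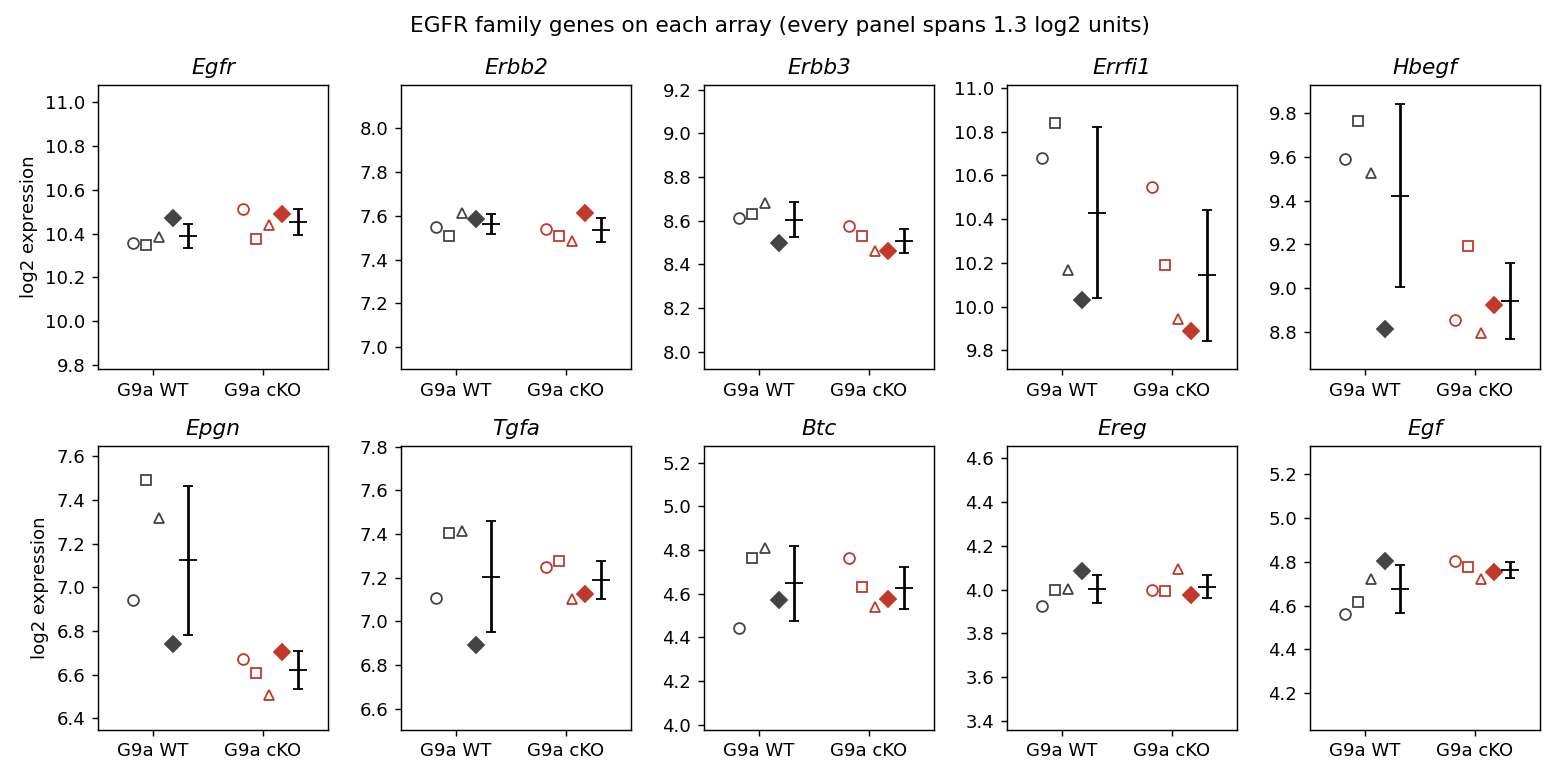
Log2 expression of each EGFR family gene on the 8 arrays, with G9a WT in grey and G9a cKO in red, replicates 1 to 4 as circle, square, triangle and filled diamond, and the bar as mean ± SD (n = 4). Every panel spans the same height, so the spread can be compared between genes. The Epgn arrays of the genotypes do not overlap, and WT replicate 4 of Hbegf lies at 8.81 among the cKO arrays.

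Promoters of 3 members are shown because these genes behaved differently on the arrays. Epgn was lower on every cKO array than on any WT array, Errfi1 had the largest SD of deviations from the genotype means, and Egfr had a small one (0.35 and 0.058). Each run is the 250 bases before the annotated start, 5′ to 3′ on the gene's strand, from RefSeq on GRCm38.p6, and the capitals mark motif matches on either strand. The first lies at chr5:91027267-91027516 (plus strand), the second at chr4:150854820-150855069 (plus strand, the second of 2 starts in the table) and the third at chr11:16751953-16752202 (plus strand).
Epgn: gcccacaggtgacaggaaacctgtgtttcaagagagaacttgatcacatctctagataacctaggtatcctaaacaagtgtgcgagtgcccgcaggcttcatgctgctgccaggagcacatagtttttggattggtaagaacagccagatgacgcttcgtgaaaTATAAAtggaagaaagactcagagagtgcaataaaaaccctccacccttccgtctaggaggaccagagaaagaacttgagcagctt
Errfi1: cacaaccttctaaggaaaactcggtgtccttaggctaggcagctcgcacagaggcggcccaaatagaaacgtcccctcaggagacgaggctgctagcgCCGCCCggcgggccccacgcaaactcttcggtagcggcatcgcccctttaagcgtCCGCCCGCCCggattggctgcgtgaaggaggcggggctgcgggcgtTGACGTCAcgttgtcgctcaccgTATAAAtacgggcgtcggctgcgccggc
Egfr: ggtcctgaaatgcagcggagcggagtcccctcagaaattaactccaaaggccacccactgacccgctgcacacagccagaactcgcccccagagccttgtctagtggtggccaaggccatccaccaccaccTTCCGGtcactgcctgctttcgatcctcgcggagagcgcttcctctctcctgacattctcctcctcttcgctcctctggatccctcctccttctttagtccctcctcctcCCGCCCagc

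Both strands were searched for 6 motifs. The TATA box was taken as TATAAA, the cyclic AMP response element as TGACGTCA and the AP-1 site as TGANTCA. The ETS site was taken as CCGGAA and the GC box of Sp1 as GGGCGG, and the CArG box of serum response factor was searched too. The Epgn window held 1 match, TATAAA, beginning 86 bases before the start. The Errfi1 window held TATAAA at 28 bases, TGACGTCA at 51 bases, and 3 GC boxes, the pair at 97 and 93 bases overlapping each other. The Egfr window held 1 ETS match and 1 GC box and no TATAAA. Matches of different motifs did not overlap in these windows. Of 32851 windows of the same length in the table, 12.4% held TATAAA, 1.55% TGACGTCA, 6.75% TGANTCA, 12.0% CCGGAA, 32.7% GGGCGG and 1.47% a CArG box. None of the 9 windows available for 7 of the 10 genes held TGANTCA or a CArG box. Erbb3, Ereg and Hbegf were not matched in the table. A match describes the letters in the window and says nothing of binding.

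The receptors differed little between genotypes. Egfr, the receptor for most ligands of the family, was covered by 6 probe sets, whose log2 changes (cKO minus WT) ran from -0.018 to 0.064. By the probe set with the highest mean, the Egfr arrays read 10.51, 10.37, 10.44 and 10.49 in cKO and 10.36, 10.35, 10.38 and 10.47 in WT. The groups overlapped. The log2 change was 0.064 (SE 0.045, limma adjusted p = 0.624), with a 95% interval of -0.037 to 0.16, so the fit allows a level from 0.975 to 1.12 times that in WT.

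Erbb2, the partner receptor, read 7.54, 7.51, 7.48 and 7.61 in cKO and 7.55, 7.51, 7.61 and 7.59 in WT. The change of Erbb2 was -0.028 on that scale (SE 0.054, limma adjusted p = 0.914), with an interval of -0.15 to 0.092. Erbb3, whose tail recruits PI3K, read 8.58, 8.53, 8.46 and 8.46 in cKO and 8.61, 8.63, 8.68 and 8.50 in WT. WT replicates 1 to 3 were above all 4 cKO arrays, and WT replicate 4 was within them. The log2 change of Erbb3 was -0.099 (SE 0.057, limma adjusted p = 0.511), and its second probe set gave -0.078, again with 3 WT arrays above all cKO arrays. The log2 change of Erbb3 without WT replicate 4 was -0.13 (limma adjusted p = 0.218). Over the 9 receptor probe sets the 95% intervals reached no lower than -0.26 and no higher than 0.22 on the log2 scale.

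**Figure D2:**
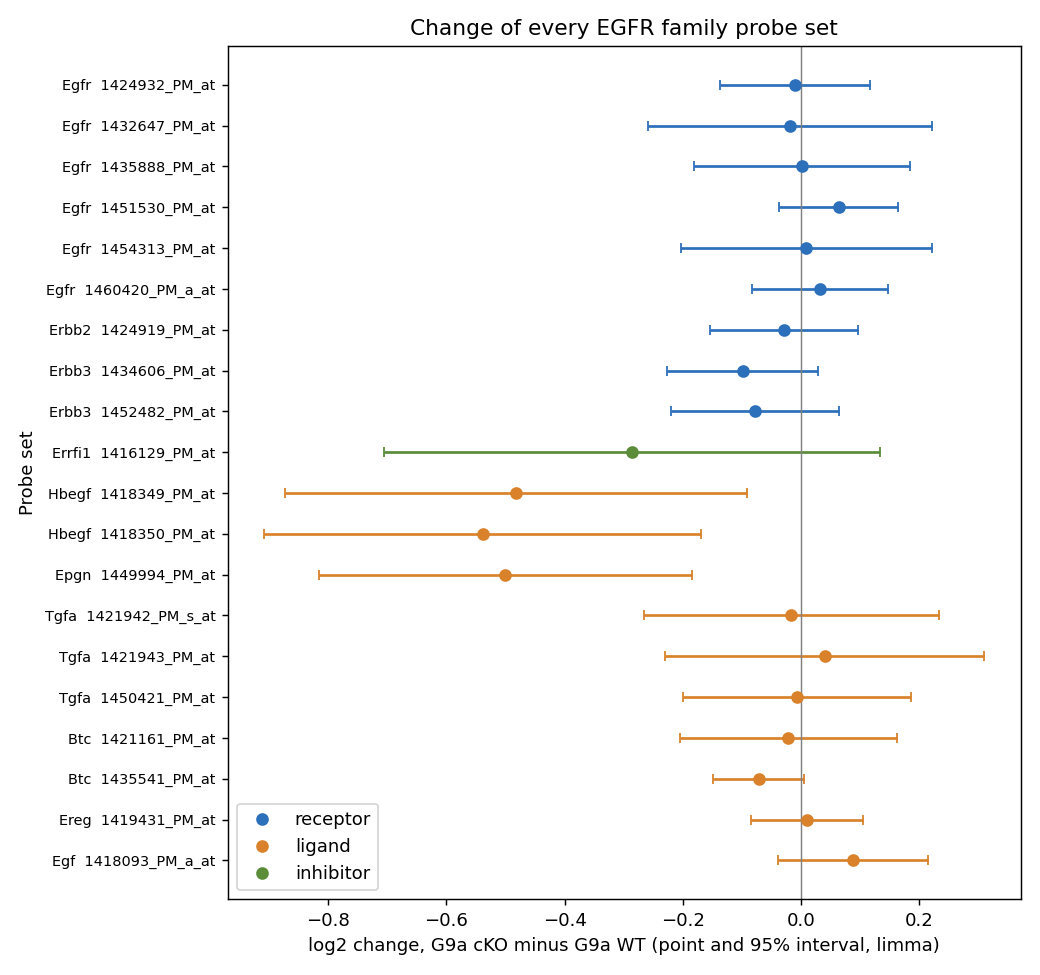
Log2 change (G9a cKO minus G9a WT) of the 20 EGFR family probe sets, with points for the limma estimate and bars for the 95% interval, coloured by role. The 2 Hbegf probe sets and the Epgn probe set lie at -0.48, -0.54 and -0.50, and the other 17 intervals include 0.

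None of the 6 ligands passed with all 8 arrays, and Epgn and Hbegf had the largest log2 changes among them. Epgn encodes epigen, a low-affinity Egfr ligand of epithelia. It read 6.67, 6.61, 6.51 and 6.70 in cKO and 6.94, 7.49, 7.32 and 6.74 in WT. All 4 WT arrays were above all 4 cKO arrays, but cKO replicate 4 and WT replicate 4, at 6.70 and 6.74, were close. Non-overlap in this direction was seen in 3.09% of all genes. The means were 6.62 ± 0.09 and 7.12 ± 0.34 (SD, n = 4 each). The log2 change was -0.50 (SE 0.14, limma adjusted p = 0.114), and an exact permutation test (two-sided) returned p = 0.0286, the smallest that 4 against 4 arrays allow. Without WT replicate 4 the log2 change of Epgn was -0.63 (limma adjusted p = 0.0174), where 4.66% of all genes were called and 1.72% were called lower. With array weights, by which limma gives less weight to arrays that lie far from their group, it was -0.58 (limma adjusted p = 0.0303). There 1.46% of all genes were called lower. The weights were estimated from these same values, so that fit is no separate support. In bulk samples such as these, fewer cells that express a gene and less RNA per cell cannot be told apart.

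Hbegf encodes heparin-binding EGF-like growth factor, which activates Egfr and Erbb4. By probe set 1418349_PM_at it read 8.85, 9.19, 8.79 and 8.92 in cKO and 9.59, 9.76, 9.53 and 8.81 in WT. WT replicates 1 to 3 lay above every cKO array, while WT replicate 4 lay below 3 of the 4. The means were 8.94 ± 0.17 and 9.42 ± 0.42 (SD, n = 4 each), a log2 change of -0.48 (SE 0.18, limma adjusted p = 0.240; exact two-sided permutation p = 0.114). The second probe set, 1418350_PM_at, also had WT replicates 1 to 3 above every cKO array and WT replicate 4 among them, with 8.50, 8.79, 8.49 and 8.62 in cKO and 9.23, 9.51, 9.26 and 8.56 in WT. Its log2 change was -0.54 (limma adjusted p over all probe sets = 0.173). Without WT replicate 4 the change of Hbegf was -0.69 (1.61-fold lower, limma adjusted p = 0.00459) in the first probe set and -0.73 in the second (limma adjusted p over all probe sets = 0.00311), where 1.84% of all probe sets were called lower.

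Tgfa encodes TGF-alpha, an autocrine Egfr ligand of keratinocytes, and was covered by 3 probe sets. By 1421942_PM_s_at it read 7.25, 7.28, 7.10 and 7.13 in cKO and 7.11, 7.41, 7.42 and 6.89 in WT. The WT arrays lay on both sides of the cKO arrays, with replicates 2 and 3 above and replicate 4 below all of them. The log2 change was -0.016 (SE 0.11, limma adjusted p = 0.980), and the other 2 probe sets gave 0.040 and -0.0062, so the probe sets differ in sign around 0. The log2 change of Tgfa without WT replicate 4 was -0.12 (limma adjusted p = 0.564). The spread was larger in WT than in cKO, with SDs of 0.25 and 0.086, and the same held for Hbegf and Epgn; the difference in spread was not tested.

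Btc (betacellulin), Ereg (epiregulin) and Egf itself were among the 40% of genes with the lowest means, where differences between arrays are compressed. Btc read 4.54 to 4.76 in cKO and 4.44 to 4.81 in WT, Ereg 3.97 to 4.09 and 3.92 to 4.08, and Egf 4.72 to 4.80 and 4.56 to 4.80. The log2 changes were -0.021, 0.011 and 0.087, with limma adjusted p of 0.962, 0.961 and 0.573. The second Btc probe set gave -0.072 (limma adjusted p over all probe sets = 0.434). No difference was detectable in these ligands at this signal, which does not show that the transcripts were absent or did not differ.

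Epgn, Ereg, Areg and Btc follow each other in that order on mouse chromosome 5 in RefSeq, and Areg, which encodes the ligand amphiregulin, was not analysed here. The nearest measured protein-coding gene before Epgn, Mthfd2l, had a log2 change of -0.064 (limma adjusted p = 0.792), and the one after Btc, Parm1, had 0.034 (limma adjusted p = 0.963). Both were picked by position after the values of Epgn had been seen. Neither these flanking genes nor Ereg and Btc passed the test, and Epgn was the only gene of these 5 whose groups did not overlap.

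The feedback inhibitor Errfi1 varied between arrays of both genotypes. It read 10.55, 10.19, 9.94 and 9.89 in cKO and 10.68, 10.84, 10.17 and 10.03 in WT, so the groups overlapped. The means were 10.14 ± 0.30 and 10.43 ± 0.39 (SD, n = 4 each). The log2 change was -0.29 (SE 0.19, limma adjusted p = 0.594), with an interval of -0.71 to 0.14 that leaves room for a level 0.611 to 1.10 times that in WT. The log2 change of Errfi1 without WT replicate 4, its lowest WT array, was -0.42 (limma adjusted p = 0.272).

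Immediate early genes, which ERK and other kinases induce within minutes of a stimulus, including tissue handling, are given beside these ligands. The mean of 23 such genes, as a deviation from the mean over all 8 arrays, was 0.27, 0.32, 0.20 and -0.15 in WT replicates 1 to 4 and -0.12, -0.081, -0.19 and -0.23 in cKO. WT replicate 4 again lay among the cKO arrays. None of these genes passed with all arrays by limma, 17 had an unadjusted p under 0.05 (13.7% of all genes did), and all 23 lay below 0 (median log2 change -0.29). Without WT replicate 4, 19 were called lower, where 1.72% of all genes were. That array had the lowest list mean in WT, so leaving it out had to widen the difference in list mean. The count of 19 was added after this had been seen and is no separate support. Egr2, a zinc finger factor, read 9.47 ± 0.28 for cKO and 10.09 ± 0.25 for WT (limma adjusted p = 0.0609), and Ier2 read 8.10 ± 0.10 and 8.52 ± 0.23 (limma adjusted p = 0.0746). Leaving out WT replicate 4, the log2 changes of Egr2 and Ier2 were -0.73 and -0.53 (limma adjusted p = 0.0159 and 0.00213). That array had the lowest WT value of both genes.

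With this list mean as a covariate, the log2 change of Hbegf turned to 0.13 (limma adjusted p = 0.774), that of Errfi1 to 0.24 (limma adjusted p = 0.781), and that of Epgn shrank to -0.16 (limma adjusted p = 0.838). Since the list mean was itself lower in cKO, such a fit also takes away any genotype difference that moves with the list.

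**Figure D3:**
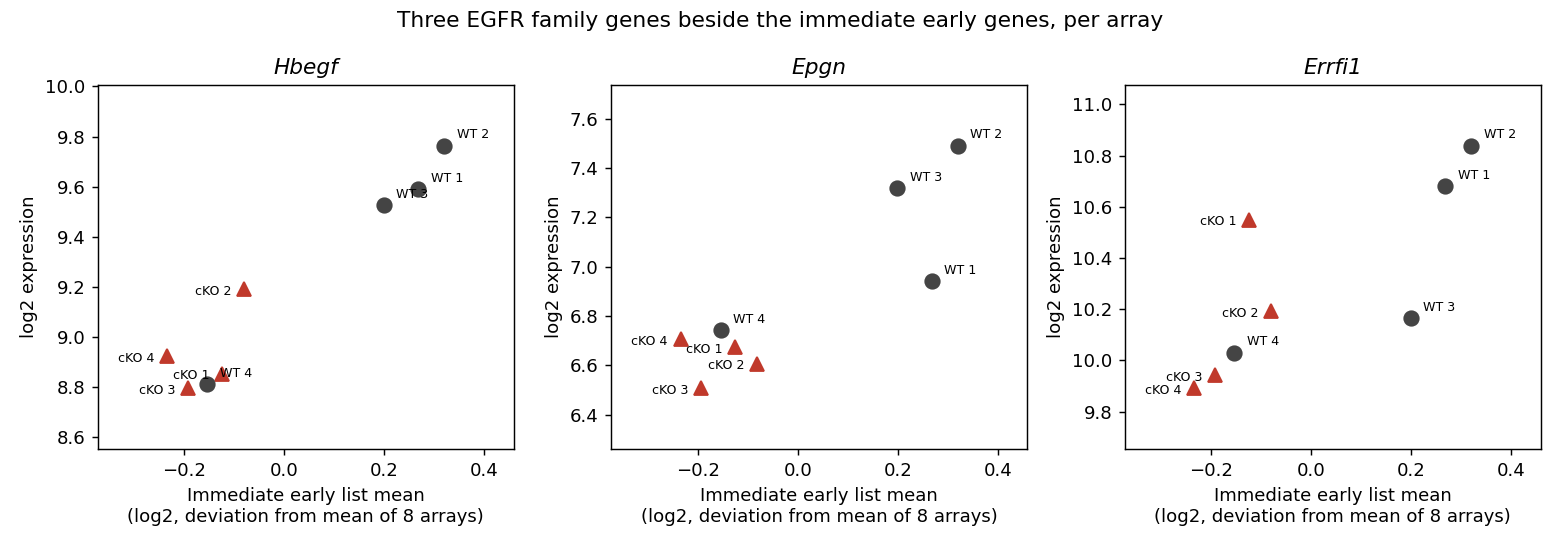
Log2 expression of Hbegf, Epgn and Errfi1 against the mean of 23 immediate early genes (log2 deviation from the mean of the 8 arrays), with 1 point per array, G9a WT as grey circles and G9a cKO as red triangles. For Hbegf, WT replicate 4 (-0.15, 8.81) lies with the cKO arrays and the other 3 WT arrays lie at 9.53 or above.

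The machinery that frees the ligands gave no calls. Of 11 measured genes of ligand release and trafficking, none passed by limma (median log2 change -0.019). An unadjusted limma p under 0.05 was seen in 4, all lower in cKO. Over all genes 13.7% had such a p in either direction and 5.57% as lower in cKO. Timp3, which encodes an inhibitor of the sheddase ADAM17, had the lowest p, at 8.89 ± 0.30 in cKO and 9.62 ± 0.34 in WT (log2 change -0.73, limma adjusted p = 0.0619). The Timp3 arrays read 9.30, 8.92, 8.61 and 8.72 in cKO and 9.46, 9.26, 9.71 and 10.04 in WT, and overlapped only through cKO replicate 1 and WT replicate 2. Here WT replicate 4 was the highest WT array, and without it the log2 change of Timp3 shrank to -0.59 (limma adjusted p = 0.0712). Rhbdf2, whose product iRhom2 escorts ADAM17 to the cell surface, read 8.10 ± 0.15 and 8.38 ± 0.11 (limma adjusted p = 0.145, and 0.179 without WT replicate 4). Adam17 itself read 9.53 ± 0.04 and 9.55 ± 0.02, a log2 change of -0.019; it was named after its value was seen.

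Of the 5 measured relatives outside the 10 genes (Erbb4 and the neuregulins), none passed and none had an unadjusted limma p under 0.05. The lowest p were those of the receptor Erbb4, at 4.52 ± 0.05 for cKO and 4.57 ± 0.05 for WT (limma adjusted p = 0.726), and the neuregulin Nrg3, at 4.04 ± 0.06 and 4.01 ± 0.08 (limma adjusted p = 0.860). Of 21 genes of receptor inhibition and turnover, none passed and none had an unadjusted limma p under 0.05 (median log2 change 0.022). Cblb, a ubiquitin ligase of active receptors, read 8.76 ± 0.11 and 8.93 ± 0.20, and Sh3kbp1, an adaptor in receptor uptake, 9.63 ± 0.17 and 9.45 ± 0.17 (limma adjusted p = 0.505 and 0.506).

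Downstream of the receptors 1 of 24 measured adaptors and kinases passed, where 2.76% of all genes did, so the count says little about the list. Gab2, a docking protein that links receptors to PI3K and SHP2, rose 1.41-fold in cKO. It read 6.93, 6.96, 6.91 and 7.15 in cKO and 6.38, 6.57, 6.60 and 6.41 in WT, so that every cKO array was above every WT array. The log2 change was 0.49 (SE 0.076, limma adjusted p = 0.00676). Its other 2 probe sets rose by 2.33 and 1.32 times (over all probe sets the limma adjusted p were 0.000617 and 0.0116), also without overlap. Leaving out any 1 of the 8 arrays kept Gab2 past the threshold. The immediate early covariate left its log2 change above 0 but not past it (limma adjusted p = 0.117, over alternatives that gave 0.000686 to 0.117). The other 23 did not pass, and the list's median log2 change was 0.0033.

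The list of ERK feedback genes holds genes that ERK activity induces, some of which damp it. Of the 11 measured, none passed by limma and 3 had an unadjusted p under 0.05, against the same 13.7% of all genes. Ier3, a stress-inducible survival gene, read 10.34 ± 0.12 for cKO and 10.83 ± 0.29 for WT (limma adjusted p = 0.0754), while Phlda1 read 10.69 ± 0.17 and 10.47 ± 0.17 (limma adjusted p = 0.346). Without WT replicate 4, 3 of the 11 were called lower, where 1.72% of all genes were. These were Ier3 (1.52-fold), the ERK phosphatase gene Dusp6 (1.47-fold) and the RAS-ERK inhibitor gene Spry4 (1.32-fold). Among the kinases and adaptors Stat3 was called lower there (1.27-fold). That array had the lowest WT value of each of these genes, so leaving it out had to widen each difference. With all 8 arrays the limma adjusted p of Dusp6, Spry4 and Stat3 were 0.347, 0.383 and 0.107. These Dusp6, Spry4 and Stat3 values were picked out after they were seen.

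Of the 14 bulge and basal keratinocyte markers none passed by limma with all 8 arrays. Nfatc1 had the lowest p of them, with a log2 change of -0.35 (limma adjusted p = 0.0566, and 0.0391 without WT replicate 4). Markers of other cells were also set beside Epgn and Hbegf. Of 5 measured markers of the infundibulum and upper follicle, Defb6 (2.35-fold) and Gata6 (1.32-fold) fell in cKO, where 0.836% of all genes did. Krt79, Plet1 and Lrig1 did not pass, with log2 changes of -0.68, 0.077 and 0.071 (limma adjusted p = 0.249, 0.903 and 0.844). The list mean was 7.97 to 8.25 in cKO and 8.45 to 8.72 in WT (sum of log2 values 39.8 to 41.3 and 42.3 to 43.6). WT replicate 4 was at 9.47 in Defb6, within the other WT arrays, and at 6.62 in Gata6, the lowest WT array, and it also had the lowest list mean in WT, 8.45. Of 12 macrophage and monocyte markers none passed, and 11 were among the dimmest 40% of genes. The sum of the 12 log2 values per array was 56.0 to 57.3 in cKO and 56.3 to 60.3 in WT. No T cell, Langerhans cell, endothelial, melanocyte or sebocyte marker passed by limma. Of 8 fibroblast markers Thy1 rose and Col1a1 fell, and of 8 markers of differentiated epidermis Sbsn rose and Krtdap fell. Over all genes 2.76% passed in either direction. The part of such cells in the values of Epgn and Hbegf was not tested.

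By deviations from the genotype means over the 8 arrays, the genes most like Errfi1 were Zfp94, Rest and Fmnl2 (Pearson r = 0.996, 0.981 and 0.979). Those most like Hbegf were Crocc, Txlng and Baiap3 (r = 0.989, 0.984 and 0.982), and those most like Epgn were Rel, Zfp592 and Arih2 (r = 0.997, 0.992 and 0.984). These are descriptions of 8 points each, chosen as the highest among all but the dimmest 40% of genes, and the points share the arrays on which they were measured.

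**Figure D4:**
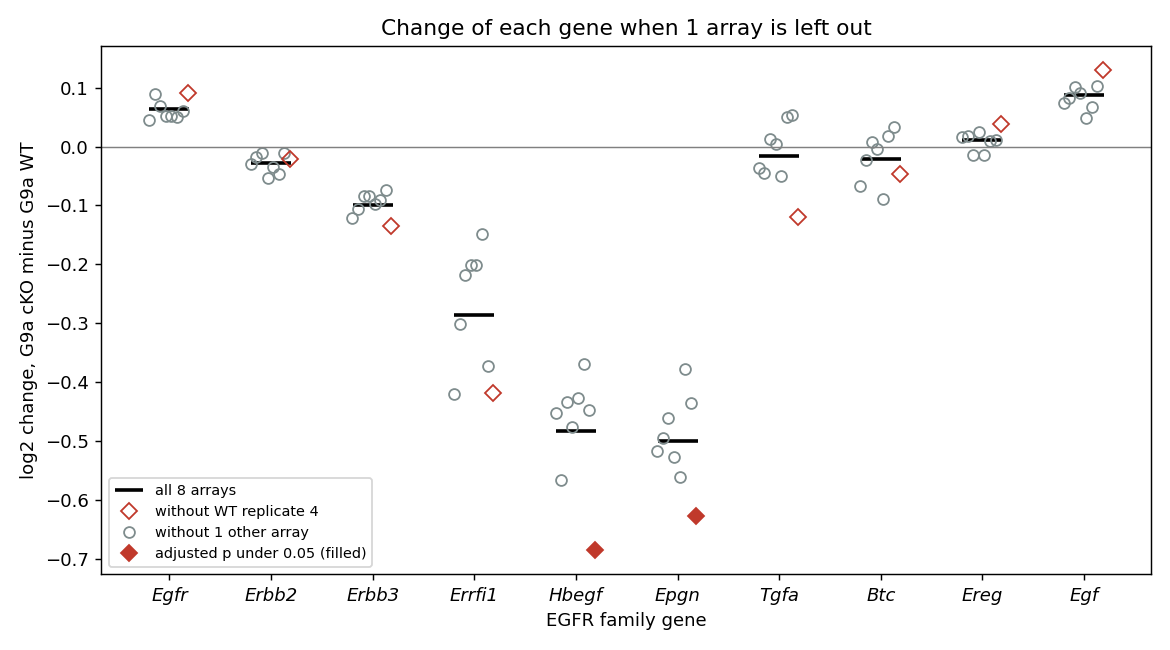
Log2 change of each EGFR family gene with all 8 arrays (black bar) and when 1 array is left out (circles, or a red diamond for WT replicate 4), filled where the limma adjusted p was under 0.05. Only Hbegf (-0.69) and Epgn (-0.63) have filled points, both without WT replicate 4.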

How the data were processed

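Each value is the log2 expression of a probe set on Affymetrix mouse arrays deposited by the authors; the submitters' processing notes name RMA. RMA corrects background, normalizes between arrays and summarises probes, and it compresses differences of dim genes. No version is stated. Per the labels' protocols, 25 ng of RNA were amplified with 17 cycles, which can distort low levels. Deposited log2 values ran from 3.1 to 13 and no further normalization was applied.

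Of 45141 probe sets 104 controls were left out; 28898 had 1 gene symbol, 551 several and 15588 none in the platform annotation, and only the first were named. A gene was represented by its brightest probe set over all arrays (17097 genes). limma 3.58.1 (R 4.3.3) compared the 4 cKO with the 4 WT arrays by lmFit and then eBayes using a trend, two-sided and without covariates, and the Benjamini-Hochberg threshold was 0.05. The number of arrays limits the precision. In a simulated comparison over 17097 genes, a true log2 change of 0.5 was recovered in 88.1% of seeded genes, and 1 or 2 in 100%. The seeded genes were drawn at random, with noise that was independent between genes and scaled to each gene's own SD. That share is therefore no measure of recovery for the noisier members. The SDs of deviations from the genotype means were 0.32 for Hbegf, 0.25 for Epgn and 0.35 for Errfi1. Single values used exact permutation tests. The labels name no batch.

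The 10 genes and all lists were chosen with earlier results of these data known. The text names the 10 genes, and of each pathway list up to 4 genes past the threshold or the 2 with the lowest p; cell markers, Ehmt2 and the most alike genes were named by rule. Promoters are RefSeq sequences. The alternatives were quantile normalization again, a common array median, removal of the dimmest 40%, averaging a gene's probe sets, no trend, array weights, a block for the replicate number, a covariate for the immediate early mean, each array left out, and a threshold of 0.1. Counts of the pathway lists without WT replicate 4 were added after seeing the data. Plots used Python 3.11.15 with matplotlib 3.10.9.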

Additional observations from a re-analysis of the deposited data

Results flagged for a closer look

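Among 42 groups of 4 arrays, made of the 20 EGFR family probe sets and the immediate early mean in each genotype, 2 had 1 array far from the other 3, where chance gives about 1 in 20. Probe set 1435541_PM_at of Btc read 3.91 in WT replicate 2 and 3.81 to 3.82 in the other WT arrays, near the bottom of the scale. Probe set 1424932_PM_at of Egfr read 8.76 in WT replicate 2 and 8.82 to 8.83 in the others. WT replicate 4 was not flagged in any of the 42 groups.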

How the results depend on the processing

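The count of 0 EGFR family genes past the threshold became 1 with array weights (Epgn, limma adjusted p = 0.0303) and ran from 0 to 2 when 1 array was left out; for probe sets it became 1 and ran from 0 to 3, with the highest counts without WT replicate 4. Over all genes 472 passed. The count was 732 with array weights, 268 with the replicate number as a block and 63 with the immediate early covariate, and it ran from 258 to 796 when 1 array was left out (796 without WT replicate 4; 258 without cKO replicate 2, 262 without WT replicate 3, 296 without cKO replicate 4, 304 without WT replicate 1). The cause of these shifts was not tested. Over all genes, same-numbered arrays did not deviate together (correlations of -0.53 to 0.028), which cannot exclude a pairing that touches single genes. Under the block 0 of the 10 genes passed. There the log2 change of Errfi1 was -0.29 with an SE of 0.089 (limma adjusted p = 0.253), against an SE of 0.19 without the block. Signs turned as follows. With the immediate early covariate the log2 change was -0.024 for Egfr, 0.0070 for Erbb3, -0.065 for Ereg, 0.13 for Hbegf, 0.28 for Tgfa, 0.060 for Btc, -0.029 for Egf and 0.24 for Errfi1. With the mean of all probe sets Tgfa was at 0.0059. With 1 array left out, Ereg ran from -0.015 to 0.038, Tgfa from -0.12 to 0.054 and Btc from -0.089 to 0.033. Epgn ran from -0.63 to -0.16 over its 16 alternatives, with adjusted p from 0.0174 to 0.838, and Hbegf from -0.69 to 0.13, with 0.00459 to 0.774. Btc, Egf and Ereg gave no value when dim genes were left out.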
